A study of Phaseolus vulgaris with 36 samples.

Results

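The genes described here are the neighbours of PvPdh1 (Phvul.003G252100) on chromosome 3 of common bean (Phaseolus vulgaris). They are all genes whose identifiers lie from Phvul.003G245000 to Phvul.003G260000 in number order, without PvPdh1 itself. This gave 158 of 27433 genes, 79 on each side of PvPdh1, with 216 transcripts. The rule uses position alone and no measured value, although the window was proposed with earlier results of these data known. PvPdh1 encodes a dirigent protein. Dirigent proteins guide the coupling of monolignol radicals, the building blocks of lignans and lignin, and in soybean the Pdh1 gene promotes pod shattering by raising the torsion of the drying pod wall. Genes that lie close together on a chromosome tend to be inherited together, so accessions can differ over a whole segment around a selected locus.

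RNA of pods was sequenced from 4 accessions at R7 (the first pod), R8 (pods filling) and R9 (the mature pod), with 3 libraries in each of the 12 groups and 36 in all. MIDAS is domesticated and labelled indehiscent, SXB405 and ICA Bunsi are domesticated and labelled intermediate in dehiscence, and G12873 is wild and labelled fully dehiscent. All plants were untreated. MIDAS and G12873 are each the only accession of their kind, so the effects of accession, of dehiscence and of domestication cannot be told apart. The labels do not state that the libraries of a group are from different plants, and p-values then measure only the spread between libraries, which may be technical. In whole pods, fewer cells of a type and less RNA per cell cannot be told apart.

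Total counts ranged from 2032506 to 15202576 per library. A set of 10 abundant genes that rose and fell together took from 1.96% to 86.5% of the counts, and over 50% in 8 libraries. These were R8 replicate 2 and R9 replicate 1 of MIDAS, R9 replicate 1 of SXB405, R7 replicate 3 with R9 replicates 1 and 3 of ICA Bunsi, and R7 replicates 1 and 2 of G12873. Outside the set the counts were 275179 and 687090 in G12873 R7 replicates 1 and 2, against up to 14904905 elsewhere. Levels are given as CPM, counts scaled to a common library size (TMM scaling). A call needed an adjusted p (Benjamini-Hochberg, edgeR's quasi-likelihood test, all genes) under 0.05 and a change of at least 2-fold, a log2 difference of 1.

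Of the 158 neighbours, 121 had enough counts to be tested (76.6%), against 76.4% of all genes. The tested neighbours were spread over both sides, with 59 below and 62 above PvPdh1 in number order. The other 37 reached at most a group mean of 1.69 CPM and included 5 with no count in any library. The median level of the tested neighbours was 10.4 CPM (6.5 TPM), against 11.0 CPM (7.16 TPM) over all tested genes. At the edges of the window, Phvul.003G245000 and Phvul.003G260000 averaged 0.864 and 4.66 CPM, while Phvul.003G244900 and Phvul.003G260100 just outside it averaged 17.0 and 7.76 CPM. The files pair no identifier with a gene name and none matched the reference table, so the neighbours are given by identifier, and neither their roles nor the labelled tissue could be checked against markers.

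As a group the neighbours stayed near the median of all genes. Over the 18 accession comparisons and the 8 stage steps, their median log2 difference lay between -0.17 and 0.15, against -0.08 and 0.15 for all genes tested. Single neighbours differed more strongly. In at least 1 of the 6 accession pairs, 18 neighbours (14.9%) were called in the same direction at R7, R8 and R9, against 8.62% of all genes tested. These 18 lay 9 on each side of PvPdh1, and 3 of them were among the 16 tested genes within 10 places of it. They include the adjacent genes Phvul.003G254400 and Phvul.003G254500, and Phvul.003G247601 and Phvul.003G247651. Such genes may not be independent of each other, and the excess over the background was not tested.

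Between MIDAS and G12873, 4 neighbours were higher and 5 lower in MIDAS at all 3 stages (7.44% of those tested, background 4.02%, with 1.96% higher and 2.06% lower). Between SXB405 and G12873, 5 were called and all were lower in SXB405 (4.13%, background 2.41%, with 1.13% higher and 1.28% lower). Between ICA Bunsi and G12873, 1 was higher and 2 were lower in ICA Bunsi (2.48%, background 1.82%, with 0.835% higher and 0.983% lower). The counts against G12873 are small and rest in part on 1 library. Without G12873 R7 replicate 3, the only deep library of that group, 3 neighbours were called for SXB405 and 1 for ICA Bunsi. There SXB405 lost the R7 calls of Phvul.003G248200, Phvul.003G254400 and Phvul.003G254500 against G12873. The 3 called for SXB405 were thus not all among the 5 above. Without the 8 libraries named above, 5 were called for MIDAS and 3 for SXB405. The 3 comparisons share the G12873 libraries.

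MIDAS against SXB405 gave 5 neighbours higher and 3 lower in MIDAS (6.61%, background 3.67%, with 2.11% higher and 1.56% lower). MIDAS against ICA Bunsi gave 6 higher and 3 lower in MIDAS (7.44%, background 3.29%, with 1.84% higher and 1.45% lower). SXB405 against ICA Bunsi gave 2 neighbours, both lower in SXB405 (1.65%, background 0.83%, with 0.467% higher and 0.362% lower). Without ICA Bunsi R9 replicate 2, the deepest library of its group, 5 neighbours were called between MIDAS and ICA Bunsi, and without the 8 libraries 4. For SXB405 against ICA Bunsi the count was 1 without SXB405 R8 replicate 2, 4 without SXB405 R9 replicate 1 and 1 without the 8 libraries.

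**Figure D1:**
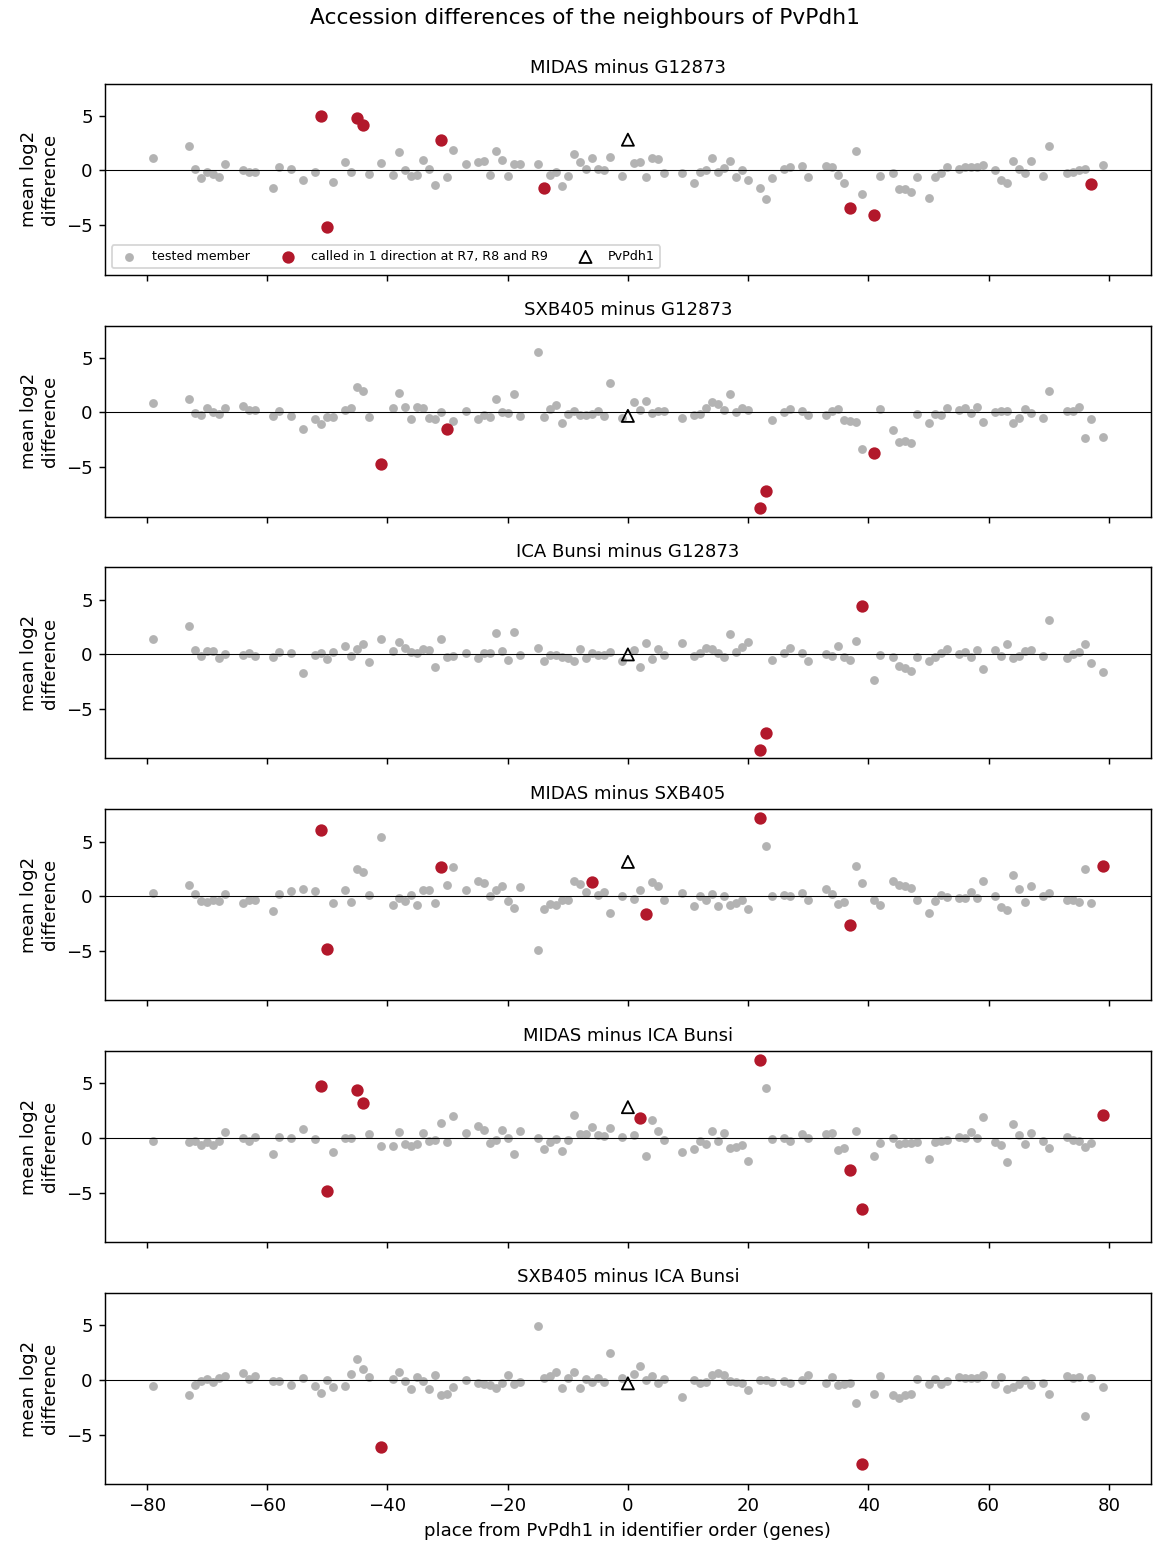
Mean fitted log2 difference over R7, R8 and R9 (vertical axis) of each tested neighbour by its place from PvPdh1 in identifier order (horizontal axis), for each accession pair, with the first-named accession minus the second. Red points were called in 1 direction at all 3 stages and the triangle is PvPdh1. Called neighbours lie on both sides. Where a gene had no count in a group compared, the fitted size is no measure of fold.

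The clearest differences were between presence and absence of counts. The adjacent genes Phvul.003G254400 and Phvul.003G254500, 22 and 23 places from PvPdh1, had no count in any of the 9 libraries of SXB405 or of ICA Bunsi. Both were detected in MIDAS and in G12873. They were the only tested neighbours without a count in those accessions (1.65% in each), where the background over all tested genes was 0.3% in SXB405 and 0.477% in ICA Bunsi. In G12873 1 tested neighbour, Phvul.003G250700, had no count in 9 libraries (background 0.353%), and in MIDAS there was none (background 0.382%). Phvul.003G250700 was nearly absent from MIDAS and ICA Bunsi too, with 1 count over the 9 libraries of each, against 93 in SXB405. These counts of absent genes were chosen after their values were seen. All libraries were counted against the same transcripts. Whether a gene without counts was not expressed, or its reads did not match these transcripts, was not tested.

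In MIDAS, Phvul.003G254400 had 1.59, 2.10 and 1.37 CPM at R7, 4.91, 5.73 and 4.55 CPM at R8, and 2.01, 0.23 and 0.555 CPM at R9. The G12873 libraries had 0, 0 and 6.18 CPM at R7, 7.97, 4.68 and 8.30 CPM at R8, and 6, 5.55 and 6.10 CPM at R9. At R8, where 3 counts over a group set the floor for an absent gene, it was at least 63.8-fold higher in MIDAS than in SXB405 and at least 58.8-fold higher in MIDAS than in ICA Bunsi. It was at least 87.9-fold lower in SXB405 and at least 81.0-fold lower in ICA Bunsi than in G12873 at R8. The adjusted p at R8 was 5.31e-06 for MIDAS against SXB405, 1.14e-05 for MIDAS against ICA Bunsi, 5.55e-06 for SXB405 against G12873 and 7.2e-06 for ICA Bunsi against G12873 (edgeR).

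At R7 the calls against G12873 rest on its replicate 3 alone, because replicates 1 and 2 held no count of the gene. Without that library both groups stood at 0 and the adjusted p was 1.0 for SXB405 and for ICA Bunsi against G12873, for Phvul.003G254400 and for Phvul.003G254500. For Phvul.003G254400 in MIDAS against ICA Bunsi at R9 (adjusted p 0.0383), the call was lost when any of 5 libraries was left out. The adjusted p was 0.0706, 0.264 and 0.056 without ICA Bunsi R9 replicate 1, 2 and 3, and 0.0744 and 0.0558 without MIDAS R9 replicate 1 and 3. With the replicate number as a block it was 0.0561, without the 8 libraries 0.0754 and with limma-voom 0.0828.

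Phvul.003G254500, next to it, had 0.122, 0.493 and 0.293 CPM at R7, 2.03, 0.716 and 0.958 CPM at R8, and 0, 0.115 and 0 CPM at R9 in MIDAS. Its G12873 values were 0, 0 and 1.66 CPM at R7, 2.89, 2.34 and 3.01 CPM at R8, and 2.20, 2.38 and 0.743 CPM at R9. At R8 and R9 every G12873 library held counts of both genes, while in MIDAS both fell between R8 and R9 (adjusted p 0.0031 for Phvul.003G254400 and 0.00291 for Phvul.003G254500). In MIDAS against G12873 at R9, Phvul.003G254400 differed by -3.16 ± 0.73 (log2, SE, adjusted p 0.0033). For Phvul.003G254500 in ICA Bunsi against G12873 at R9, the call (adjusted p 0.00356) was lost without ICA Bunsi R9 replicate 2 (adjusted p 0.051).

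A second adjacent pair, Phvul.003G247601 and Phvul.003G247651, showed opposite patterns. In MIDAS, Phvul.003G247601 had 4.89, 3.45 and 3.90 CPM at R7, 6.39, 5.73 and 5.03 CPM at R8, and 11.0, 10.6 and 17.5 CPM at R9. In the 27 libraries of the other accessions its highest value was 1.00 CPM and its median 0. All 9 MIDAS libraries thus lay above the other 27. The log2 differences of MIDAS at R8 were 5.05 ± 0.86 against SXB405 and 3.70 ± 0.76 against ICA Bunsi (SE, adjusted p 3.98e-05 and 0.000728, edgeR). Against SXB405 at R9, with no count in 3 libraries, it was at least 127-fold higher in MIDAS. The call against G12873 at R7 (adjusted p 0.0203) was lost without G12873 R7 replicate 2 (0.0582), without G12873 R7 replicate 3 (0.0839) and without the 8 libraries (0.106).

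Phvul.003G247651 had no count in the 3 MIDAS libraries at R7, 0.798, 0 and 0.599 CPM at R8, and 0, 2.18 and 2.91 CPM at R9. In SXB405 it had 5.70, 5.35 and 4.87 CPM at R7, 6.76, 6.51 and 4.39 CPM at R8, and 21.4, 6.62 and 6.4 CPM at R9. The G12873 libraries had 6.64, 10.1 and 7.78 CPM at R7, 4.51, 14.9 and 6.85 CPM at R8, and 19.9, 10.6 and 2.68 CPM at R9. At R7 and R8 no MIDAS library reached the level of any library of those accessions. At R7 it was at least 47.0-fold lower in MIDAS than in SXB405, at least 57.6-fold lower than in ICA Bunsi and at least 72.4-fold lower than in G12873. At R8 the log2 difference was -3.31 ± 0.68 for MIDAS against SXB405, -3.35 ± 0.68 against ICA Bunsi and -3.90 ± 0.68 against G12873 (SE, adjusted p 0.000394, 0.000635 and 4.74e-05).

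At R9 the calls for Phvul.003G247651 were less firm. The adjusted p was 0.00544 for MIDAS against G12873 and 0.0545 without G12873 R9 replicate 1, and 0.00449 against SXB405 and 0.056 without SXB405 R9 replicate 1. Against ICA Bunsi it was 0.0243, and 0.138 without ICA Bunsi R9 replicate 2, 0.0652 without MIDAS R9 replicate 1 and 0.0725 without MIDAS R9 replicate 2. Without the 8 libraries the calls against SXB405 and ICA Bunsi at R9 were lost as well (0.136 and 0.08). The summed level of the 2 genes was 4.08 ± 0.734 CPM in MIDAS, 5.81 ± 0.775 CPM in SXB405, 6.59 ± 1.11 CPM in ICA Bunsi and 8.40 ± 1.74 CPM in G12873 at R7 (SD, n = 3 each). At R8 the sums were 6.18 ± 0.869 CPM in MIDAS, 6.05 ± 1.45 CPM in SXB405, 6.49 ± 2.24 CPM in ICA Bunsi and 8.86 ± 5.40 CPM in G12873. At R9 they were 14.7 ± 4.98 CPM in MIDAS, 11.5 ± 8.58 CPM in SXB405, 8.52 ± 2.58 CPM in ICA Bunsi and 11.2 ± 8.78 CPM in G12873. The MIDAS sums at R7 (3.45 to 4.89 CPM) lay below those of every other library of that stage (at least 5.32 CPM), while at R8 and R9 the accessions overlapped. Whether these genes overlap or share sequence was not tested, and strand use is not given in the sources used here, so the split of reads between them is uncertain.

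Besides Phvul.003G247601, 1 other neighbour had all 9 MIDAS libraries above the other 27 (2 of 121, 1.65%, background 0.41% for all 9 above). Phvul.003G248025 had 1.10, 0.617 and 0.683 CPM at R7, 1.66, 2.63 and 1.44 CPM at R8, and 8.53, 0.689 and 4.44 CPM at R9 in MIDAS, against at most 0.571 CPM in the other 27. The gap at the nearest point was narrow, between 0.617 CPM in a MIDAS library and 0.571 CPM in an SXB405 library. Without MIDAS R9 replicate 3, 4 neighbours lay apart in MIDAS. Its log2 difference of MIDAS against ICA Bunsi at R8 was 3.30 ± 0.76 (SE, adjusted p 0.00228). Against G12873 at R7 the call (adjusted p 0.025) was lost without G12873 R7 replicate 3 (0.302), without MIDAS R7 replicate 1 (0.0602), without the 8 libraries (0.0547), with DESeq2 (0.0838) and with limma-voom (0.131).

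PvPdh1 itself was higher in the MIDAS libraries, with 35.1 to 169 CPM (median 82.2) in MIDAS and 3.32 to 24.2 CPM (median 8.64) in the other 27 libraries. The 2 neighbours with levels most like those of PvPdh1 over the 36 libraries were Phvul.003G249200 (Spearman's rho 0.80) and Phvul.003G249900 (0.78). The libraries share accession and stage, so these values are a description. Over 119 neighbours rho had a median of 0.052 and a lowest value of -0.59.

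Phvul.003G249200 had 14.5, 9.25 and 10.7 CPM at R7, 3.44, 5.49 and 5.27 CPM at R8, and 34.6, 12.3 and 9.30 CPM at R9 in MIDAS. Its SXB405 values were 0.697, 0.771 and 1.39 CPM at R7, 0.857, 2.03 and 2.31 CPM at R8, and 1.45, 3.36 and 1.42 CPM at R9. MIDAS and SXB405 did not overlap at any stage. The log2 difference of MIDAS was 3.60 ± 0.49 against SXB405 at R7, 1.41 ± 0.47 at R8 and 3.09 ± 0.48 at R9 (SE, adjusted p 2.41e-06, 0.021 and 1.8e-05). At R8 this call was lost without SXB405 R8 replicate 1 (0.0982) and without MIDAS R8 replicate 2 (0.0509) or 3 (0.076). The ICA Bunsi libraries had 1.94, 2.60 and 1.28 CPM at R7, 3.39, 3.83 and 3.61 CPM at R8, and 11.3, 5.49 and 7.49 CPM at R9. MIDAS lay above ICA Bunsi at R7 and the 2 accessions overlapped at R8 and R9. The difference of MIDAS from ICA Bunsi was 2.50 ± 0.48 at R7, 0.37 ± 0.45 at R8 and 1.20 ± 0.48 at R9, and only that at R7 was called (adjusted p 0.000267, 0.615 and 0.0764). Against G12873 the differences were 4.09 ± 0.68, 1.63 ± 0.48 and 2.58 ± 0.47 at R7, R8 and R9 (adjusted p 3.61e-05, 0.00788 and 0.000147). Against G12873, Phvul.003G249900 was called higher in MIDAS at R9 only, at 1.90 ± 0.39 (adjusted p 0.000491). This fell under the 2-fold limit without MIDAS R9 replicate 1 (0.97) and without the 8 libraries (0.93). MIDAS was also called higher than SXB405 at R7 and R9 and than ICA Bunsi at R9, and its rise from R8 to R9 was called. Without MIDAS R9 replicate 1 the R9 differences were 0.85 against SXB405 and 0.40 against ICA Bunsi, and the step was 0.71. The R7 call was lost without SXB405 R7 replicate 2 or 3 or MIDAS R7 replicate 2.

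In ICA Bunsi 1 neighbour lay apart, Phvul.003G256100 with all 9 libraries above the other 27 (0.826% of those tested, background 0.0286%). It had 13.3, 7.34 and 8.94 CPM at R7, 19.8, 14.8 and 18.5 CPM at R8, and 9.92, 20.4 and 3.74 CPM at R9 in ICA Bunsi. In the other 27 libraries it ranged from 0 to 2.63 CPM, with a median of 0.102 CPM, and the highest of these were the 3 MIDAS libraries at R8 (1.29, 2.63 and 1.86 CPM) and G12873 R7 replicate 3 (1.66 CPM). At R8, with no count in SXB405, it was at least 223-fold lower in SXB405 than in ICA Bunsi. The log2 difference at R8 was -3.27 ± 0.60 for MIDAS against ICA Bunsi and 5.93 ± 0.73 for ICA Bunsi against G12873 (SE, adjusted p 0.000221 and 1.39e-06). The call for ICA Bunsi against G12873 at R7 (adjusted p 0.0135) was lost without G12873 R7 replicate 2 (0.0605), without ICA Bunsi R7 replicate 1 (0.063) and without the 8 libraries (0.105). No tested neighbour had all libraries of SXB405 (background 0.138%) or of G12873 (background 0.262%) apart from the rest, and leaving out SXB405 R7 replicate 1 gave 1 for SXB405.

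Phvul.003G248200 was at or near 0 in SXB405, with 1 count in 9 libraries. In ICA Bunsi it had 4.64, 3.05 and 2.87 CPM at R7, 1.22, 0.489 and 0.503 CPM at R8, and 0.945, 0.637 and 0.936 CPM at R9. SXB405 and ICA Bunsi did not overlap at any stage, and at R7 the gene was at least 71.4-fold lower in SXB405 (adjusted p 2.14e-06). At R8 the adjusted p was 0.00639, and 0.0644 without SXB405 R8 replicate 2. At R9 it was 0.00633, and 0.114 without the 8 libraries. For SXB405 against G12873 at R7, the call rested on 4 counts, all in G12873 R7 replicate 3 (0.238 CPM). It was lost without that library.

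**Figure D2:**
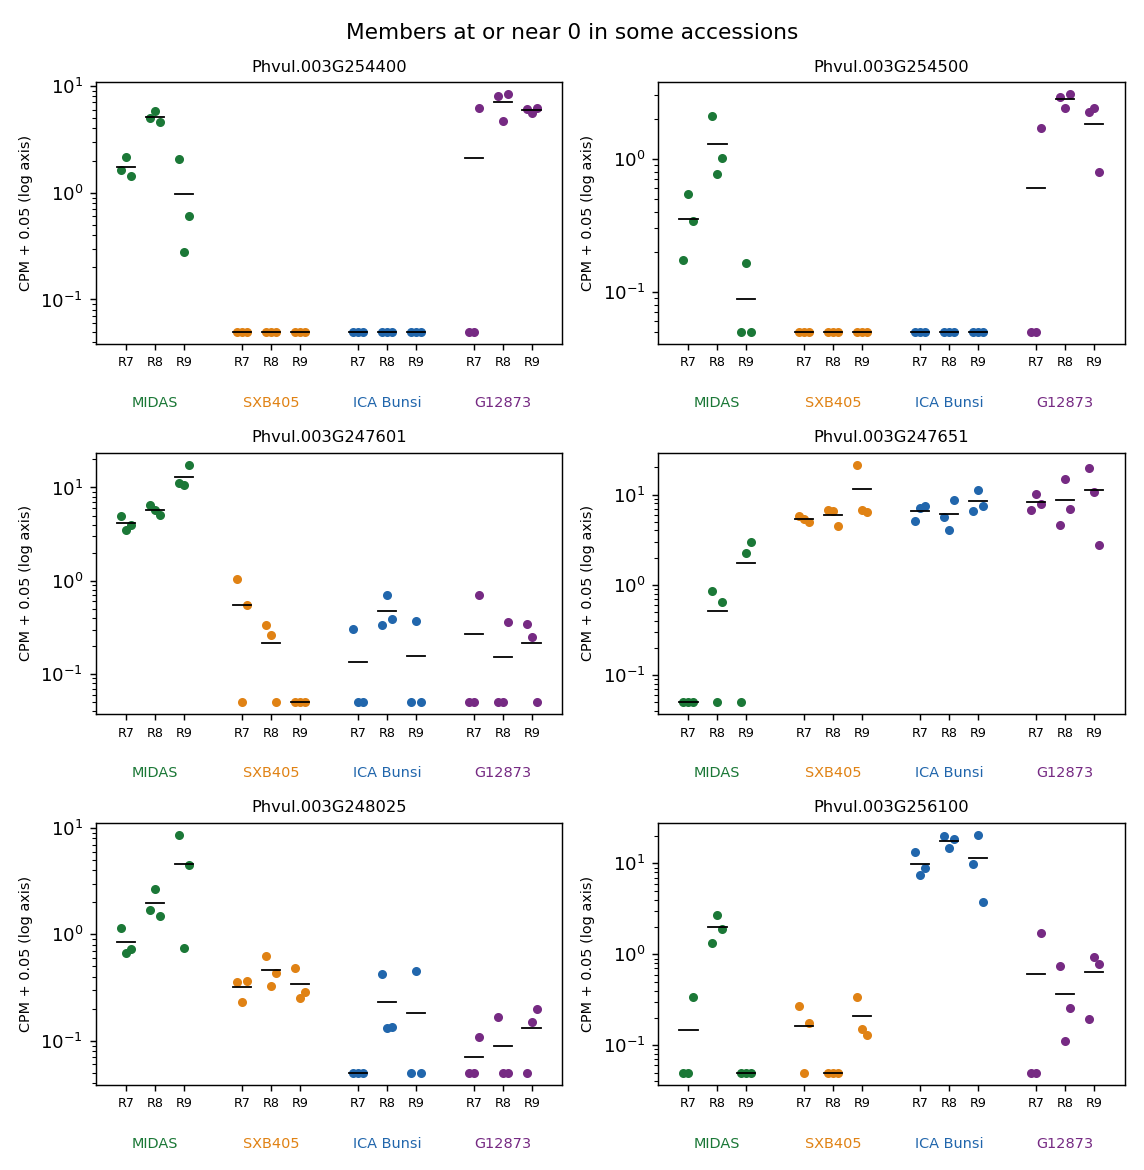
CPM + 0.05 on a log axis of 6 neighbours in each library (points, replicates 1 to 3 from left to right) and the mean of each group (black line), by accession and stage. Phvul.003G254400 and Phvul.003G254500 lie at the floor in SXB405 and ICA Bunsi, Phvul.003G247601 and Phvul.003G248025 are highest in MIDAS, Phvul.003G247651 is lowest in MIDAS and Phvul.003G256100 is highest in ICA Bunsi.

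None of the 4 genes on either side of PvPdh1 had all 9 MIDAS libraries above the other 27. Only 0.41% of all tested genes did, so its absence among so few genes says little about them. Below it in number order, Phvul.003G251900 had at most 0.638 CPM and was not tested, and Phvul.003G251700 stayed at or under 5.61 CPM. Calls of Phvul.003G251700 included a fall between R7 and R8 in MIDAS and a higher level in MIDAS than in SXB405 at R7. The fall was lost without any MIDAS R8 library (adjusted p 0.0795 to 0.112). The difference at R7 was lost without SXB405 R7 replicate 1 (0.0592) or 2 (0.0522). Phvul.003G251800 had 13.1, 0.74 and 10.6 CPM in MIDAS, 9.80, 4.95 and 8.91 CPM in SXB405, then 1.01, 0.79 and 2.87 CPM in ICA Bunsi, and 0, 0 and 0.832 CPM in G12873 at R7. SXB405 lay above ICA Bunsi and G12873 at R7, and MIDAS replicate 2 lay below the other MIDAS libraries. At R9 the MIDAS libraries had 0, 0.919 and 0 CPM, against 2.62, 5.10 and 6.24 CPM in the SXB405 libraries, a log2 difference of -3.45 ± 0.90 (SE, adjusted p 0.00477). Phvul.003G252000, next to PvPdh1, lay between 3.78 and 24.4 CPM. At R8 it was lower in SXB405 (-1.22 ± 0.29, adjusted p 0.00306) and in ICA Bunsi (-1.14 ± 0.29, adjusted p 0.00466) than in G12873. Without G12873 R8 replicate 2 the difference was -0.95 (adjusted p 0.0441) for SXB405 and -0.87 (adjusted p 0.0637) for ICA Bunsi, both under the 2-fold limit.

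Above PvPdh1, Phvul.003G252200 rose between R7 and R8 in all 4 accessions. It had 4.15, 3.33 and 2.93 CPM at R7, 7.92, 7.64 and 6.95 CPM at R8, and 25.1, 28.4 and 34.3 CPM at R9 in MIDAS. In G12873 it had 9.96, 1.01 and 3.33 CPM at R7, 7.63, 10.3 and 5.50 CPM at R8, and 8.49, 5.95 and 6.24 CPM at R9. At R9 every MIDAS library lay above every other library of that stage. At R9 the log2 difference was 2.10 ± 0.31 for MIDAS against G12873 and 1.42 ± 0.32 for MIDAS against ICA Bunsi (SE, adjusted p 8.82e-06 and 0.00215), and in MIDAS the step from R8 to R9 was 1.97 ± 0.31 (adjusted p 7.49e-06). The SXB405 libraries had 13.2, 17.0 and 15.4 CPM at R8 and 10.5, 18.3 and 21.6 CPM at R9. MIDAS thus lay below SXB405 at R8 and above it at R9, with differences of -1.02 ± 0.30 at R8 (adjusted p 0.0093) and 0.80 ± 0.30 at R9 (adjusted p 0.0418), under the 2-fold limit. The R8 difference was under that limit as well (-0.93 to -0.99) with RLE size factors or DESeq2, and without MIDAS R8 replicate 3, MIDAS R9 replicate 1, SXB405 R8 replicate 2, SXB405 R9 replicate 1, ICA Bunsi R8 replicate 1, G12873 R7 replicate 1 or 2, or G12873 R9 replicate 1. The size of the R9 minus R8 step differed by accession (F-test, adjusted p 0.00132). The R8 minus R7 call in G12873 (1.23 ± 0.40, adjusted p 0.0198) was lost without G12873 R7 replicate 2 (0.0904), R7 replicate 3 (0.161) or R8 replicate 2 (0.0902), and that in MIDAS (1.11 ± 0.32, adjusted p 0.0124) without MIDAS R7 replicate 3 (0.0731).

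Phvul.003G252300 had 22.2, 20.1 and 25.5 CPM at R7, 20.3, 17.0 and 17.7 CPM at R8, and 8.53, 65.7 and 15.1 CPM at R9 in MIDAS. In ICA Bunsi it had 5.91, 5.08 and 2.23 CPM at R7, 6.31, 6.85 and 6.63 CPM at R8, and 8.03, 7.24 and 14 CPM at R9. The 2 accessions were apart at R7 and R8 and overlapped at R9. MIDAS was higher by 2.26 ± 0.42 at R7 and 1.48 ± 0.40 at R8 (log2, SE, adjusted p 0.000179 and 0.00783). At R9 the difference was 1.79 ± 0.44 (adjusted p 0.00402), and 0.47 (adjusted p 0.389) without MIDAS R9 replicate 2.

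Phvul.003G252400 had 1.71, 3.45 and 2.44 CPM at R7, 2.27, 3.10 and 2.46 CPM at R8, and 6.02, 6.09 and 6.24 CPM at R9 in MIDAS. The SXB405 libraries had 7.36, 7.35 and 5.18 CPM at R7, 12.9, 12.5 and 12.6 CPM at R8, and 15.3, 13.2 and 12.8 CPM at R9. MIDAS lay below SXB405 in every library of each stage. The log2 differences were -1.39 ± 0.35, -2.32 ± 0.35 and -1.16 ± 0.34 at R7, R8 and R9 (SE, adjusted p 0.0034, 7.34e-06 and 0.011), and no left-out library ended these calls. Phvul.003G252500 had at most 2.95 CPM, and its difference of 1.95 ± 0.70 for MIDAS against ICA Bunsi at R8 lay at the threshold (adjusted p 0.0473). This call was lost without MIDAS R8 replicate 1 or 3 or ICA Bunsi R8 replicate 1 or 3 (0.124 to 0.186), and with DESeq2 (0.0686), the replicate block (0.0643) or no low-count filter (0.0544). It was also lost without any R7 library of MIDAS, SXB405 or ICA Bunsi, SXB405 R8 replicate 3, G12873 R8 replicate 3 or G12873 R9 replicate 2 (0.0503 to 0.0585).

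**Figure D3:**
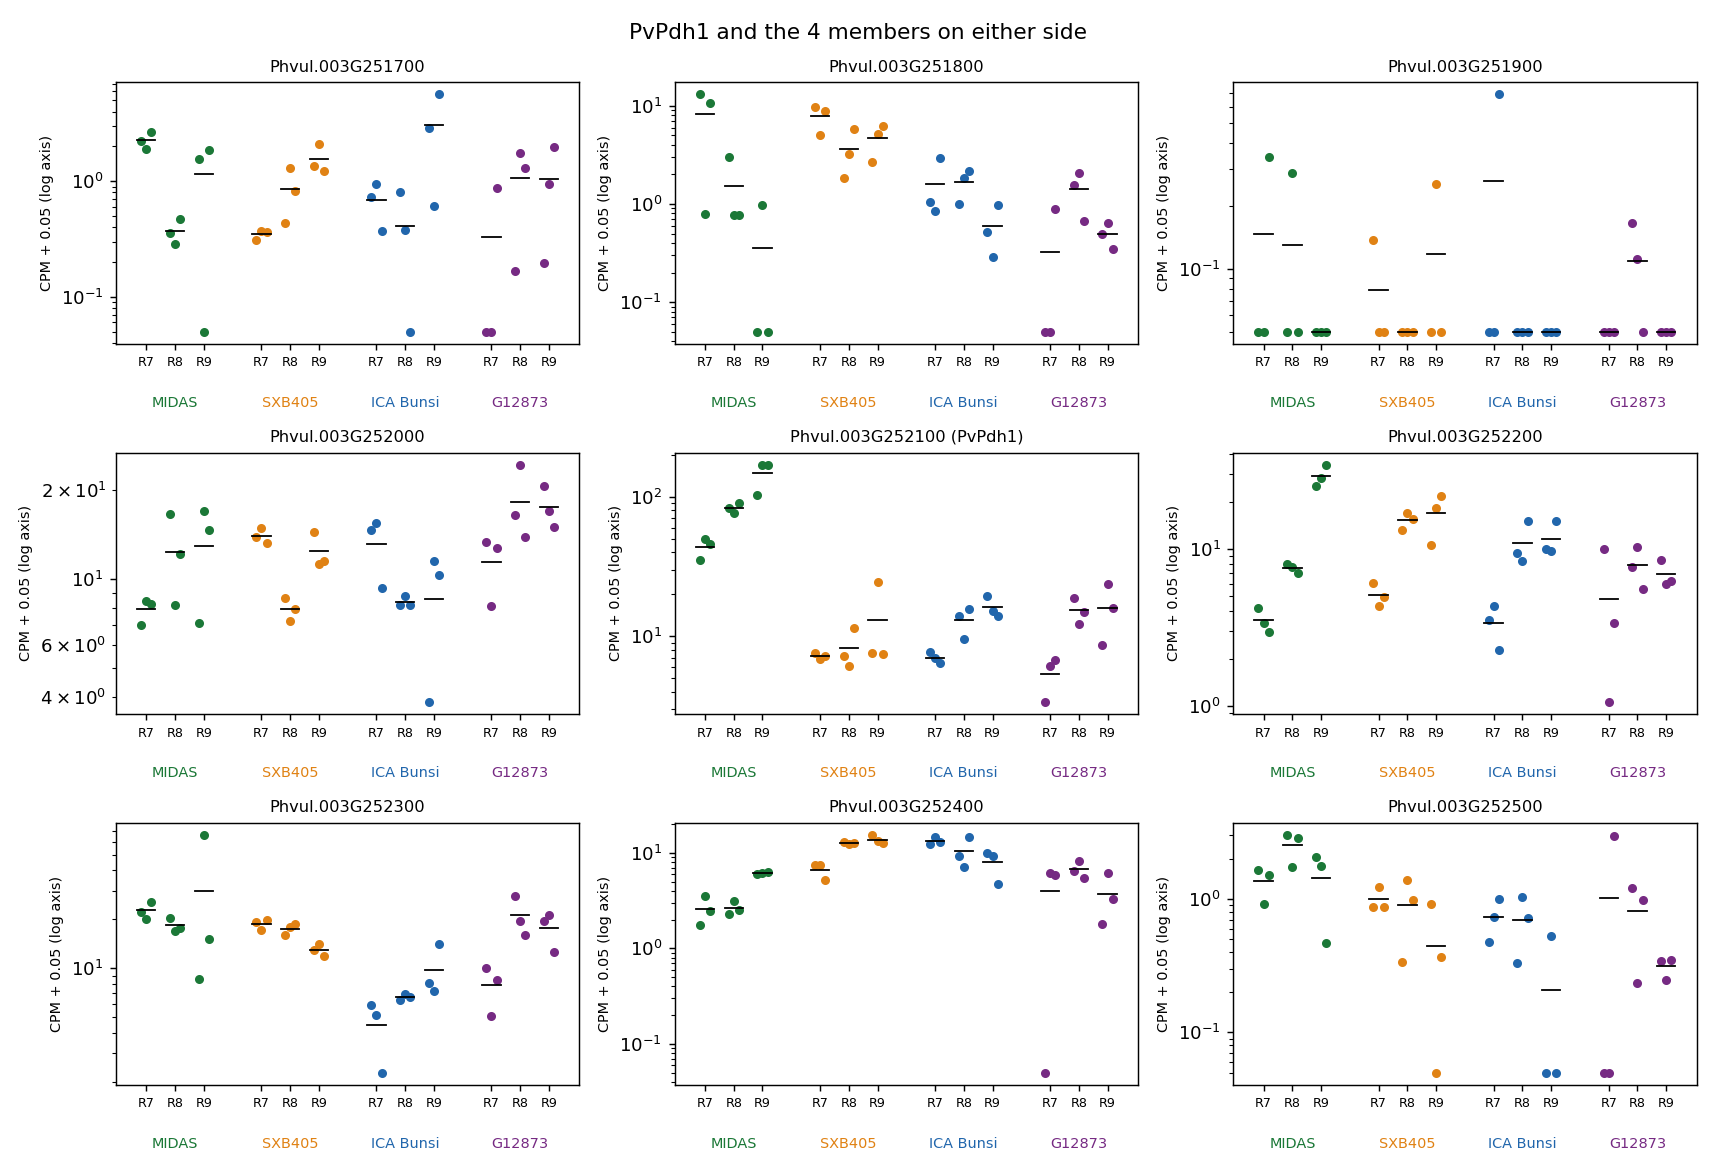
CPM + 0.05 on a log axis of PvPdh1 (centre) and the 4 genes on either side of it in each library (points, replicates 1 to 3 from left to right), with the group mean (black line). PvPdh1 is highest in MIDAS at each stage. None of the 8 neighbours has all of its MIDAS libraries above those of the other accessions, which 0.41% of all tested genes have.

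Over the stages, 75 neighbours (62.0%) were called in at least 1 of the 8 steps, against 61.8% of all genes tested. Between R7 and R8, 17 rose and 5 fell in MIDAS (background 16.8%), 17 rose and 18 fell in SXB405 (25.2%), 19 rose and 8 fell in ICA Bunsi (23.2%), and 13 rose and 16 fell in G12873 (24.7%). As shares of the neighbours tested these were 18.2% in MIDAS, 28.9% in SXB405, 22.3% in ICA Bunsi and 24.0% in G12873, each near its background. The directions did not all follow it. In MIDAS 14.0% rose and 4.13% fell (background 7.5% and 9.3%), and in ICA Bunsi 15.7% rose and 6.61% fell (background 11.9% and 11.2%). In SXB405 14.0% rose and 14.9% fell (background 10.6% and 14.5%), and in G12873 10.7% rose and 13.2% fell (background 11.9% and 12.8%). With RLE size factors 13 rose and 8 fell in MIDAS, and with DESeq2 14 and 8. The MIDAS count was 13 without MIDAS R7 replicate 1, 8 without R7 replicate 3 and 13 without R8 replicate 1.

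Between R8 and R9, 20 neighbours rose and 19 fell in MIDAS (32.2%, background 30.3%), 4 rose and 2 fell in SXB405 (4.96%, background 4.96%), and 5 rose and 12 fell in ICA Bunsi (14.0%, background 15.4%). By direction, 16.5% rose and 15.7% fell in MIDAS (background 14.2% and 16.2%), 3.31% and 1.65% in SXB405 (background 2.85% and 2.11%), and 4.13% and 9.92% in ICA Bunsi (background 7.32% and 8.1%). With RLE size factors 4 rose and 0 fell in SXB405, and with DESeq2 7 rose and 9 fell in ICA Bunsi. In G12873 edgeR called 0 of the neighbours and 0 of all genes (background 0.0%). There 7 neighbours had an unadjusted p under 0.05, and DESeq2 and limma-voom also called 0 (7 and 9 at an unadjusted p under 0.05). The ICA Bunsi count was 11 without ICA Bunsi R8 replicate 2 or R9 replicate 3 and 5 without the 8 libraries. The SXB405 count was 3 without SXB405 R7 replicate 2, 2, 0 and 1 without R8 replicates 1, 2 and 3, and 0 and 2 without R9 replicates 1 and 2. It was 2 without the 8 libraries and 0 with limma-voom (26 at an unadjusted p under 0.05).

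From R7 to R8, 3 neighbours rose in all 4 accessions (2.48% of those tested, background 0.673%). They were Phvul.003G252200, described above, Phvul.003G255900 and Phvul.003G256300. Phvul.003G255900 had 5.74, 4.19 and 4 CPM at R7, 23.5, 30.6 and 21.6 CPM at R8, and 20.6, 19.9 and 14.7 CPM at R9 in MIDAS. Its SXB405 values were 32.1, 19.8 and 20.7 CPM at R7, 307, 108 and 129 CPM at R8, and 173, 85.7 and 102 CPM at R9. In G12873 it had 36.5, 27.3 and 28.9 CPM at R7, 522, 99.6 and 183 CPM at R8, and 360, 442 and 279 CPM at R9. No MIDAS library reached the lowest library of any other accession at its stage. The step was 2.43 ± 0.49 in MIDAS, 2.90 ± 0.47 in SXB405, 4.18 ± 0.50 in ICA Bunsi and 3.16 ± 0.51 in G12873 (log2, SE, adjusted p 0.000711, 1.82e-05, 1.04e-06 and 3.37e-05). The steps of the accessions did not pass the test of a difference (adjusted p 0.142).

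MIDAS differed in the level of Phvul.003G255900 from each other accession at each stage. Against SXB405 the log2 difference was -2.38 ± 0.48 at R7, -2.85 ± 0.47 at R8 and -2.72 ± 0.48 at R9 (SE, adjusted p 0.000532, 3.03e-05 and 0.000102). Against G12873 it was -2.69 ± 0.52, -3.42 ± 0.48 and -4.30 ± 0.51 at R7, R8 and R9 (adjusted p 0.000231, 2.6e-06 and 3.19e-07). None of these calls was lost when a library or the 8 libraries were left out.

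In MIDAS, Phvul.003G256300 had 0.611, 1.48 and 0.683 CPM at R7, 19.7, 17.7 and 5.99 CPM at R8, and 3.51, 11.7 and 15.1 CPM at R9. The SXB405 libraries had 3.35, 2.04 and 1.45 CPM at R7, 28.6, 6.44 and 8.86 CPM at R8, and 15.4, 6.01 and 6.87 CPM at R9. Its G12873 values were 19.9, 28.3 and 12.6 CPM at R7, 324, 85.7 and 108 CPM at R8, and 206, 268 and 161 CPM at R9. Every G12873 library lay above every library of MIDAS, SXB405 and ICA Bunsi at its stage. The log2 difference from G12873 was -4.34 ± 0.76, -3.59 ± 0.59 and -4.29 ± 0.62 in MIDAS at R7, R8 and R9 (SE, adjusted p 0.000101, 2.85e-05 and 9.99e-06), and -3.01 ± 0.66, -3.57 ± 0.59 and -4.51 ± 0.62 in SXB405 (adjusted p 0.00229, 9.03e-05 and 9.36e-06). The step from R7 to R8 was 3.95 ± 0.71 in MIDAS, 2.65 ± 0.59 in SXB405, 2.60 ± 0.60 in ICA Bunsi and 3.20 ± 0.65 in G12873 (adjusted p 0.000292, 0.000965, 0.00167 and 0.000487).

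In the same stretch of the window, Phvul.003G255801 had 69.3, 55.5 and 39.8 CPM at R7, 289, 342 and 302 CPM at R8, and 34.1, 26.8 and 18.6 CPM at R9 in MIDAS. In ICA Bunsi it had 22.2, 34.5 and 29.4 CPM at R7, 466, 365 and 469 CPM at R8, and 184, 367 and 142 CPM at R9. Both rose between R7 and R8, and between R8 and R9 it fell in MIDAS alone among the called steps. That step was -3.57 ± 0.44 in MIDAS, -0.42 ± 0.39 in SXB405, -0.90 ± 0.40 in ICA Bunsi and 0.15 ± 0.39 in G12873 (log2, SE, adjusted p 2.1e-07, 0.626, 0.102 and 1.0), and the steps differed between accessions (F-test, adjusted p 0.000143).

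Phvul.003G250000 and Phvul.003G250100, next to each other, moved in opposite directions. Phvul.003G250100 had 24.8, 16.6 and 16.4 CPM at R7, 6.14, 11.5 and 10.2 CPM at R8, and 2.51, 0.804 and 0 CPM at R9 in MIDAS. Its SXB405 values were 16.5, 20.5 and 24.8 CPM at R7, 2.95, 1.96 and 3.39 CPM at R8, and 0.291, 1.02 and 0.711 CPM at R9. It was the 1 neighbour that fell between R8 and R9 in 3 or more accessions (0.826% of those tested, background 1.14%). The steps were -3.62 ± 0.65 in MIDAS, -1.95 ± 0.60 in SXB405 and -2.00 ± 0.62 in ICA Bunsi (log2, SE, adjusted p 5.16e-05, 0.0468 and 0.0212). The ICA Bunsi call was lost without ICA Bunsi R8 replicate 2 (0.183) or R9 replicate 2 (0.203). The SXB405 call lay at the threshold. It was lost when any SXB405 library was left out (0.055 to 0.195), with the replicate block (0.0633), without the 8 libraries (0.0987), with limma-voom (0.133) and with RLE size factors (0.0508). It was also lost without G12873 R8 replicate 1 or 3, G12873 R9 replicate 2, ICA Bunsi R7 replicate 1 or 2, MIDAS R7 replicate 1, 2 or 3, and MIDAS R8 replicate 1 or 3 (0.0501 to 0.0565).

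Phvul.003G250000 had 2.81, 2.59 and 2.34 CPM at R7, 5.28, 3.10 and 4.25 CPM at R8, and 9.54, 8.62 and 9.85 CPM at R9 in MIDAS. In SXB405 it had 1.57, 0.635 and 0.695 CPM at R7, 5.24, 8.89 and 9.17 CPM at R8, and 19.1, 12.1 and 10.3 CPM at R9. The 3 stages did not overlap in either accession. The step from R7 to R8 was 2.98 ± 0.45 in SXB405 and 2.24 ± 0.56 in G12873 (log2, SE, adjusted p 6.13e-06 and 0.00299). The step from R8 to R9 was 1.10 ± 0.43 in MIDAS and 1.26 ± 0.43 in ICA Bunsi (adjusted p 0.0425 and 0.0346). The ICA Bunsi call was lost without ICA Bunsi R8 replicate 1 or 2 or any ICA Bunsi R9 library (0.0607 to 0.142) and without the 8 libraries (0.192). The MIDAS call was lost without MIDAS R8 replicate 2 or 3, any MIDAS R9 library, G12873 R7 replicate 1, ICA Bunsi R7 replicate 3, ICA Bunsi R8 replicate 1, or ICA Bunsi R9 replicate 1 or 3 (0.0513 to 0.143). It was lost as well without the 8 libraries (0.155), with limma-voom (0.0664) and with no low-count filter (0.0589).

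From R7 to R8, Phvul.003G245000 was the 1 neighbour that fell in 3 or more accessions (0.826% of those tested, background 5.77%). It fell in SXB405, ICA Bunsi and G12873. It had 2.22, 2.90 and 1.71 CPM at R7, 0.286, 0.280 and 0.154 CPM at R8, and 0.582, 0.102 and 0.237 CPM at R9 in SXB405, with R7 apart from the later stages. The step was -3.19 ± 0.69 in SXB405 and -2.12 ± 0.65 in ICA Bunsi (log2, SE, adjusted p 0.000549 and 0.0132). The ICA Bunsi call was lost without ICA Bunsi R7 replicate 1 (0.0544) or R8 replicate 1 (0.065) or 3 (0.0682). The G12873 libraries had 3 counts over the 3 libraries at R8 (adjusted p 0.000972), and the call was lost without G12873 R7 replicate 3 (0.255). Phvul.003G259000 averaged under 1 CPM at R8 in SXB405 and G12873, and its R8 minus R7 calls there (adjusted p 0.0445 and 0.0284) rest on few counts. The SXB405 call was lost without any SXB405 R7 library, SXB405 R8 replicate 2 or 3, ICA Bunsi R7 replicate 1, MIDAS R7 replicate 1 or MIDAS R8 replicate 1 or 3 (0.0502 to 0.195), and with DESeq2 (0.0855) or no low-count filter (0.0519). The G12873 call was lost without G12873 R8 replicate 2 (0.121), and without G12873 R7 replicate 3 the sign of the step turned (adjusted p 0.835).

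The step from R7 to R8 differed between the 4 accessions in 45 of 121 neighbours (37.2%, background 33.7%). The step from R8 to R9 differed in 25 (20.7%, background 21.8%). The smallest adjusted p belonged to Phvul.003G247700 and Phvul.003G258300 in the step from R7 to R8. Both fell in SXB405 and G12873, where MIDAS moved the other way.

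Phvul.003G247700 had 6.48, 4.69 and 4.29 CPM at R7, 13.6, 15 and 8.57 CPM at R8, and 2.01, 0.345 and 0.277 CPM at R9 in MIDAS. Its SXB405 values were 26.6, 17.8 and 17.8 CPM at R7, 6.95, 2.24 and 2.31 CPM at R8, and 2.76, 1.12 and 0.869 CPM at R9. In G12873 it had 120, 61.7 and 62.3 CPM at R7, 3, 0.862 and 1.97 CPM at R8, and 3.66, 1.39 and 1.49 CPM at R9. In MIDAS R8 was the highest stage, and in SXB405 and G12873 R7 was. The step from R7 to R8 was 1.25 ± 0.47 in MIDAS, -2.46 ± 0.47 in SXB405, 0.12 ± 0.44 in ICA Bunsi and -5.36 ± 0.55 in G12873 (log2, SE, adjusted p 0.0477, 0.000127, 0.868 and 6.84e-08), and the difference between accessions had an adjusted p of 1.07e-06. The rise in MIDAS lay at the threshold. It was lost when MIDAS R7 replicate 1, 2 or 3 or MIDAS R8 replicate 1 or 2 was left out (0.0636 to 0.164), without the 8 libraries (0.0882), with RLE size factors (0.0621), with DESeq2 (0.0603) and with no low-count filter (0.0503). It was also lost without G12873 R8 replicate 3, ICA Bunsi R7 replicate 1 or 2, ICA Bunsi R9 replicate 2, any SXB405 R7 library or SXB405 R9 replicate 2 (0.0507 to 0.0552).

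From R8 to R9, Phvul.003G247700 fell in MIDAS and ICA Bunsi, with steps of -4.47 ± 0.67 in MIDAS and -3.24 ± 0.60 in ICA Bunsi (log2, SE, adjusted p 4.51e-06 and 0.000379). The step was -1.34 ± 0.53 in SXB405 and 0.20 ± 0.56 in G12873 (adjusted p 0.142 and 1.0). At R9 it averaged 0.877 ± 0.98 CPM in MIDAS and 2.18 ± 1.28 CPM in G12873, and at R7 the averages were 5.15 ± 1.16 CPM for MIDAS and 81.2 ± 33.2 CPM for G12873 (SD, n = 3 each).

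Phvul.003G258300 had 11.6, 17.4 and 10.5 CPM at R7, 35.6, 38.5 and 41.2 CPM at R8, and 7.53, 4.82 and 12.6 CPM at R9 in MIDAS. The SXB405 libraries had 102, 79.8 and 67.6 CPM at R7, 41.8, 25 and 30.7 CPM at R8, and 25.4, 24.3 and 22.9 CPM at R9. Its G12873 values were 99.6, 73.8 and 93.6 CPM at R7, 27.5, 16.5 and 16.1 CPM at R8, and 28.6, 35.3 and 23.3 CPM at R9. At R7 and R9 every MIDAS library lay below every library of the other accessions. The step from R7 to R8 was 1.54 ± 0.31 in MIDAS, -1.35 ± 0.30 in SXB405, -0.83 ± 0.30 in ICA Bunsi and -2.14 ± 0.32 in G12873 (log2, SE, adjusted p 0.000697, 0.000742, 0.0333 and 1.2e-05), and the difference between accessions had an adjusted p of 7.87e-06. From R8 to R9 it fell in MIDAS, with a step of -2.19 ± 0.33 (adjusted p 4.26e-06), and this step differed between accessions as well (adjusted p 6.12e-05). At R7 the log2 difference of MIDAS was -2.66 ± 0.32 against SXB405 and -2.75 ± 0.33 against G12873 (adjusted p 3.34e-07 and 3.97e-07).

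Phvul.003G251600 had 108, 89.8 and 133 CPM at R7, 87.5, 79.1 and 82.6 CPM at R8, and 189, 194 and 178 CPM at R9 in MIDAS. In ICA Bunsi it had 63.5, 66.0 and 60.3 CPM at R7, 83.5, 69.2 and 87.7 CPM at R8, and 186, 148 and 284 CPM at R9. R9 lay above R8 in every library of both. The step from R8 to R9 was 1.17 ± 0.24 in MIDAS and 1.35 ± 0.24 in ICA Bunsi (log2, SE, adjusted p 0.000213 and 0.000235), against 0.44 ± 0.23 in SXB405 and 0.12 ± 0.23 in G12873 (adjusted p 0.31 and 1.0). Without the 8 libraries, which leaves 1 ICA Bunsi library at R9, the ICA Bunsi step was 0.89 (adjusted p 0.0402), under the 2-fold limit.

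**Figure D4:**
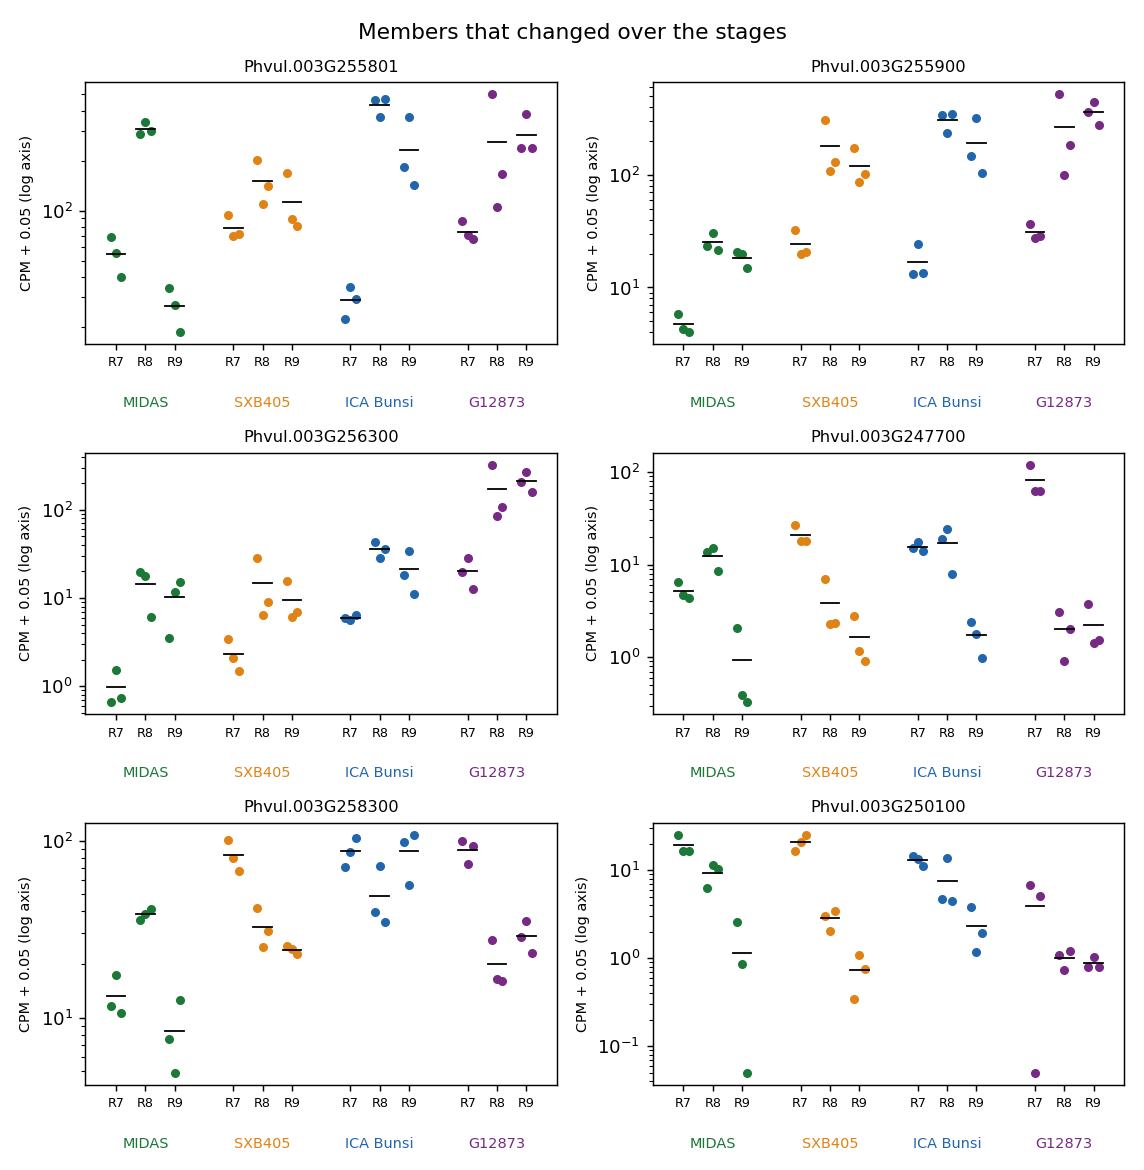
CPM + 0.05 on a log axis of 6 neighbours that changed over the stages, in each library (points, replicates 1 to 3 from left to right) with the group mean (black line). Phvul.003G255900 rises between R7 and R8 in all 4 accessions and is lowest in MIDAS, Phvul.003G247700 and Phvul.003G258300 peak at R8 in MIDAS and fall between R7 and R8 in SXB405 and G12873.

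Per length, the neighbours with the highest mean TPM were Phvul.003G259600 (1070 TPM), Phvul.003G249800 (412 TPM) and Phvul.003G248075 (264 TPM). Phvul.003G249800 had 939, 817 and 822 CPM at R7, 1095, 1105 and 1128 CPM at R8, and 323, 1039 and 366 CPM at R9 in MIDAS. In SXB405 it had 653, 494 and 664 CPM at R7, 282, 282 and 345 CPM at R8, and 178, 195 and 150 CPM at R9. MIDAS lay above SXB405 in every library of each stage, by 0.51 ± 0.33 at R7, 1.87 ± 0.34 at R8 and 1.73 ± 0.34 at R9 (log2, SE, adjusted p 0.262, 7.4e-05 and 0.000283), and the difference at R7 was not called. Without MIDAS R9 replicate 2 the R9 difference was 0.98, under the 2-fold limit. Phvul.003G248075 averaged 76.3 ± 10, 139 ± 35.1 and 654 ± 485 CPM at R7, R8 and R9 in MIDAS, and 82.3 ± 7.43, 437 ± 56.9 and 405 ± 75.9 CPM in G12873 (SD, n = 3 each). It rose between R7 and R8 by 1.78 ± 0.37 in SXB405, 2.64 ± 0.39 in ICA Bunsi and 2.40 ± 0.39 in G12873 (log2, SE, adjusted p 0.000349, 9.44e-06 and 3.29e-05), and between R8 and R9 by 2.23 ± 0.38 in MIDAS (adjusted p 2.16e-05).

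Phvul.003G259600, whose transcript is 249 bases long, varied widely between libraries of 1 group. In the 8 libraries where the co-varying set took over 50% of counts it ranged from 681 to 3890 CPM (median 1970), and in the other 28 from 15.8 to 516 CPM (median 73.8). In G12873 at R7 it had 3894 and 3710 CPM in replicates 1 and 2 and 46.9 CPM in replicate 3. It was the only tested neighbour whose 8 and 28 libraries did not overlap (0.167% of all tested genes did so), and Spearman's rho with the share of the set was 0.97 over the 36 libraries, as a description. None of its stage steps was called, and of the 18 accession comparisons 1 was. This was SXB405 against G12873 at R7 (-6.85 ± 2.06, log2, SE, adjusted p 0.0211), and it was lost without the 8 libraries (-1.10, adjusted p 0.514) and without SXB405 R7 replicate 1 (0.0789), 2 (0.0715) or 3 (0.0711). All neighbours together took from 0.554% to 1.08% of the counts outside the set in the 8 libraries and from 0.317% to 0.625% in the other 28. Without this gene the shares were 0.298% to 0.544% and 0.313% to 0.601%, and they overlapped.

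**Figure D5:**
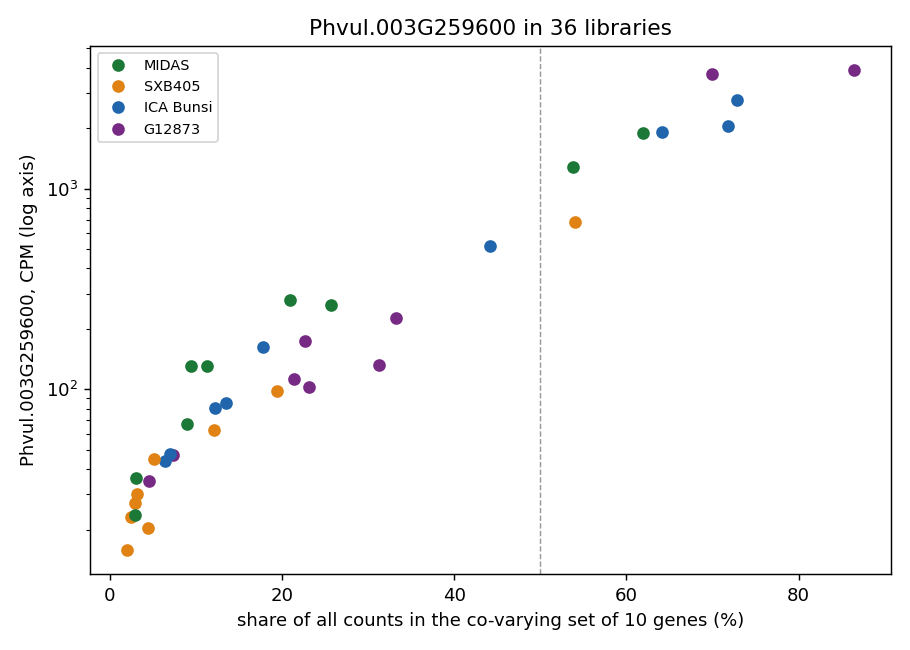
CPM of Phvul.003G259600 on a log axis against the share of all counts taken by the co-varying set of 10 genes (%), 1 point per library, coloured by accession, with a dashed line at 50%. The 8 libraries over 50% lie at 681 CPM or more and all others at 516 CPM or less, whatever the accession.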

How the data were processed

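Each of the 36 files holds, per transcript, an estimated count and a TPM value, a level scaled for length and library size. The authors deposited the estimated counts without normalization and the TPM values scaled to 1 total per library. The submitters' processing notes name kallisto, limma and edgeR, without versions. Build, annotation and strand use are not given here by any source, so overlapping, antisense and near-identical genes are uncertain.

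Counts of the 36995 transcripts were added up for each of 27433 genes and rounded. The test was edgeR 4.0.16 (R 4.3.3) after filterByExpr (at least 10 counts, and 15 in total) and TMM scaling, with a robust quasi-likelihood fit of all 36 libraries in 12 groups, with p-values adjusted over the 20966 genes tested. A difference between the steps of accessions was an F-test over the 4 accessions. The SE of a log2 difference was its absolute value divided by the square root of the F statistic of its test. It is thus derived from the test and was not estimated directly. TPM entered no test. Neighbours were counted for a pair only if called in 1 direction at all 3 stages.

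Members and rules were chosen with earlier results of these data known. The 30 neighbours named by rule are the 4 nearest on either side, the strongest of each comparison and step, the members apart in 1 accession, the 3 highest in TPM and the 2 most like PvPdh1. The reference table (34165 genes, assembly P. vulgaris v2.0) matched 0 identifiers. Replicate numbers were checked for pairing: correlations of the deviations of same-numbered libraries lay between -0.437 and 0.432, with all 3 over 0.1 in 2 of 26 comparisons. No replicates agreed within sampling noise (lowest chi-square per gene 6.32 over 36 pairs). Total counts ranged from 2032506 to 15202576, and precision was set by the 275179 to 14904905 counts outside the co-varying set. Floors of 3 counts over a group cover counting error only. The fit was tested on simulated data, with 200 genes changed in MIDAS at every stage. Calls between MIDAS and G12873 at all 3 stages found 2% of the genes changed 2-fold and 60% of those changed 4-fold. There were 0 false calls. The simulated counts followed the fitted model, with the same mean for a gene in all groups apart from these changes. They held no stage effects and no joint rise and fall of the co-varying set. The 0 therefore does not measure false calls in these data. Differences near 2-fold are mostly missed by this rule, in part because the 2-fold limit must itself be passed at each stage. Alternatives were limma-voom (limma 3.58.1), DESeq2 1.42.0, no low-count filter, RLE size factors, no minimum fold, leaving out the 50 most abundant genes, the 8 libraries or each library in turn, and a replicate block. Python 3.11.15, pandas 2.3.3 and matplotlib 3.10.9 read the tables and drew the plots.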

Additional observations from a re-analysis of the deposited data

Results flagged for a closer look

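The change between stages was not alike in the 4 accessions for part of the neighbours. The step from R7 to R8 differed between accessions in 45 of the 121 tested neighbours and the step from R8 to R9 in 25, shares near those of all genes tested (33.7% and 21.8%). For Phvul.003G247700 the adjusted p of the difference was 1.07e-06 for R8 minus R7 and 0.0011 for R9 minus R8. For Phvul.003G258300 it was 7.87e-06 and 6.12e-05. For R9 minus R8 it was 0.000143 for Phvul.003G255801 and 0.0154 for Phvul.003G251600.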

How the results depend on the processing

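Of 862 counts of called or separate neighbours recomputed over 20 results, 834 stayed within 1.5 times the reported count. Most of these recounts left out 1 library, often from no group compared, so this share does not measure how firm a count is. With the 8 libraries dominated by the co-varying set (over 50%) left out, the pair counts were 5 for MIDAS against G12873, 3 for SXB405 against G12873, 4 for MIDAS against ICA Bunsi and 1 for SXB405 against ICA Bunsi. There the step from R8 to R9 had 5 calls in ICA Bunsi and 2 in SXB405, and 2 neighbours lay apart in ICA Bunsi and 1 in SXB405. Limma-voom called 0 neighbours for R9 minus R8 in SXB405, and with the deposited TPM 0 lay apart in ICA Bunsi. The causes were not tested. Leaving out each library in turn gave 6 to 9 for MIDAS against G12873, 1 to 3 for ICA Bunsi against G12873, 3 to 7 for SXB405 against G12873, 5 to 10 for MIDAS against ICA Bunsi, 6 to 8 for MIDAS against SXB405 and 1 to 4 for SXB405 against ICA Bunsi. For R8 minus R7 it gave 8 to 25 in MIDAS, 29 to 39 in SXB405, 19 to 31 in ICA Bunsi and 23 to 34 in G12873. For R9 minus R8 it gave 33 to 42 in MIDAS, 0 to 8 in SXB405, 11 to 24 in ICA Bunsi and 0 in G12873. Steps that differ between accessions numbered 35 to 54 and 21 to 35, and neighbours apart 2 to 4 in MIDAS, 0 to 1 in SXB405, 1 in ICA Bunsi and 0 in G12873. Of 11395 alternative values for named neighbours, 412 lost a call. The 11395 include values that were not called at first and fits without a library of neither group compared. Their share therefore does not measure how firm the calls are. The call of R8 minus R7 for Phvul.003G245000 in MIDAS was gained without the 8 libraries (-1.86, adjusted p 0.0264). Of 4 values that changed sign, 3 did so without G12873 R7 replicate 3. There the R8 minus R7 step of Phvul.003G259000 in G12873 was 2.52 (range over the left-out libraries -3.94 to 2.52), and Phvul.003G256100 at R7 stood at 3.28 for MIDAS minus G12873 (-6.74 to 3.28) and 3.33 for SXB405 minus G12873 (-4.3 to 3.33), with no call. MIDAS minus SXB405 at R9 for Phvul.003G252300 was -0.07 without MIDAS R9 replicate 2 (-0.07 to 1.66). The numbers pair no samples by the labels; with a replicate block the pair counts were 10 for MIDAS against G12873, 3 for ICA Bunsi against G12873, 5 for SXB405 against G12873, 8 for MIDAS against ICA Bunsi, 8 for MIDAS against SXB405 and 2 for SXB405 against ICA Bunsi. The block ended 6 calls of named neighbours: R9 minus R8 for Phvul.003G250100 in SXB405 (adjusted p 0.0633), MIDAS minus ICA Bunsi at R9 for Phvul.003G254400 (0.0561) R8 minus R7 for Phvul.003G254500 in MIDAS (0.0706), SXB405 minus G12873 at R8 for Phvul.003G256100 (0.0558), and for Phvul.003G252500 at R8 MIDAS minus G12873 (0.0517) and MIDAS minus ICA Bunsi (0.0643). RLE size factors moved the median log2 difference of all genes by more than 0.1 only for SXB405 minus G12873 at R7 (0.14 with TMM, 0.03 with RLE). Depth limits G12873 R7 most, where 2 of 3 libraries held 275179 and 687090 counts outside the set.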
